A study of Mus musculus with 12 samples.

Results

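The cytosolic ribosomal protein genes were the 84 genes of the array whose names mark a protein of the large or the small subunit of the cytosolic ribosome (Rpl and Rps names, Rplp0, Rplp1, Rplp2, Rpsa and Fau), out of 30175 names on the array. Names of mitochondrial ribosomal proteins and of pseudogenes were left out, and the copies Rpl36al and Rps4y2 were not covered by the name pattern used. The names were matched without measured values, although the set was chosen with earlier results of these data known. Each gene was represented by the brightest of its probes on these arrays. They were carried by 189 of the 39429 probes, with 25 genes on a single probe and at most 7 probes for a gene. Of the 84 genes, 51 belong to the large and 33 to the small subunit.

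RNA of GMP (granulocyte-monocyte progenitors), which give rise to neutrophils and monocytes in the bone marrow, was hybridised to 12 one-colour Cy3 arrays of mouse genes. All donors of the cells carried Tg(vav-Cre), from which Cre recombinase is made throughout blood cells. The RUNX1-ERt2 group (2 arrays) and the ERt2 group (2 arrays) descended from Runx1fl/fl-Tg(vav-Cre) marrow harvested on day 3 after 150 mg/kg of 5-fluorouracil and infected with a MIG retrovirus that carried GFP with either RUNX1 fused to the tamoxifen-responsive ERt2 domain or ERt2 alone. Lethally irradiated mice received these cells, and GFP-positive GMP were sorted 6 weeks later, 24 h after the last of 3 days of tamoxifen at 49.5 µg/g. The labels of all 4 of these samples name tamoxifen, whereas the protocol gives it to only a part of the mice. The ko group (4 arrays) was native GMP of Runx1fl/fl-Tg(vav-Cre) mice, in which the gene of the transcription factor RUNX1 is deleted, and the wt group (4 arrays) was native GMP of Runx1+/+-Tg(vav-Cre) mice. The labels give no ages and do not say whether samples of a group are separate animals, so the p-values rest on a spread that may be technical in part.

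Every ribosome is built from 1 copy of nearly every ribosomal protein, together with ribosomal RNA, so cells need the proteins in balanced amounts. Their mRNAs are among the most abundant of growing cells, and most start with a run of pyrimidines, the 5′ TOP motif, through which mTOR signalling adjusts their translation. In humans, inherited loss of 1 allele of several of these genes causes Diamond-Blackfan anaemia, a failure of red cell production.

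The sequences below bear on the results. The probes of Rpl7a, a large-subunit protein, and of Rps3a, a small-subunit protein, are shown because probes of the same gene gave opposite changes, and the start of the Rps21 probe because that gene had the widest change. They are printed 5′ to 3′ as deposited, with G and C in capitals, and the coordinates are those of the scanner files (mm9).
Rpl7a probe A_55_P2037922, chr2:26768759-26768818, plus strand: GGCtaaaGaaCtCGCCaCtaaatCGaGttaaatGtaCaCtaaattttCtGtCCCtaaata
Rpl7a probe A_55_P2001347, chr2:26768759-26768818, plus strand: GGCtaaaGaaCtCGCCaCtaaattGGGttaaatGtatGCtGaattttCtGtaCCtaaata
Rpl7a probe A_55_P2024080, chr2:26768730-26768789, plus strand: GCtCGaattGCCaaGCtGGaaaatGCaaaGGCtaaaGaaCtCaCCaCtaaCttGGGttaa
Rpl7a probe A_55_P2039598, chr2:26766632-26766986, plus strand: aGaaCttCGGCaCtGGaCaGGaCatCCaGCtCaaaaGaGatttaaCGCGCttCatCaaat
Rps3a probe A_51_P292357, chr3:85942027-85942458, minus strand: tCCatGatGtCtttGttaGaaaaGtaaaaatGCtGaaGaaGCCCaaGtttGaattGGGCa
Rps3a probe A_55_P2056190, chr3:85942435-85942494, minus strand: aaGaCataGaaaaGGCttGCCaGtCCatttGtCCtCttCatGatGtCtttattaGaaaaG
Rps21 probe A_52_P740562, bases 1 to 30, chr2:179993084-179993143, plus strand: aaCttttGaGCaGaaGaaatCGGGaatttG

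Levels are the log2 processed signal of a probe minus the 75th percentile of its array. All 14 markers of GMP, among them Mpo and Elane, were above background on all arrays. Slide 1 and slide 2 each held 2 ko and 2 wt arrays, while ERt2 lay on slide 3 alone and RUNX1-ERt2 on slide 4 alone, so that slide and group cannot be told apart for the transplanted groups. Runx1 itself, at 3.40 ± 0.58 in ko and 1.71 ± 0.54 in wt (SD, n = 4 each) on its brighter probe, was not lower in ko. No source used here places that probe inside or outside the floxed segment, so it does not check the deletion. In bulk RNA, fewer cells of a type and less RNA per cell cannot be told apart. The summed level of 11 markers of mature neutrophils (signal over the 75th percentile) was 133 to 151 in RUNX1-ERt2, 549 to 681 in ERt2, 34.6 to 294 in ko and 59.1 to 295 in wt, with at most 1 of the markers below background on an array. That of 14 erythroid markers was 239 to 324 in RUNX1-ERt2, 127 to 225 in ERt2, 51.7 to 147 in ko and 47.4 to 81.2 in wt, with none below background. That of 12 megakaryocyte markers was 17.4 to 54.1 in RUNX1-ERt2, 15.6 to 35.7 in ERt2, 51.4 to 67.9 in ko and 11.6 to 17.7 in wt. The 14 GMP markers summed to 535 to 744 in RUNX1-ERt2, 1030 to 1170 in ERt2, 451 to 592 in ko and 697 to 962 in wt, and the 10 markers of T and NK cells to 16.3 in both RUNX1-ERt2 arrays, 36.9 to 49.2 in ERt2, 9.23 to 14.7 in ko and 21.6 to 35.1 in wt. Between ko and wt these last 3 sums did not overlap, with ko higher for megakaryocyte markers and lower for the others. At most 3 markers of each of these lists were below background on an array. Sums of 9 basophil and mast cell markers did not overlap either, at 53.0 to 84.9 in ko and 39.3 to 45.7 in wt. Over the 8 of them tested, the median log2 difference of ko minus wt was −2.08, the other way. Up to 4 of the 9 were below background. Sums of 10 monocyte and macrophage markers were 118 to 143 in ERt2 and 18.2 to 51.3 in ko. Sums of 8 B cell markers were 14.0 to 28.8 in RUNX1-ERt2 and 8.72 to 9.76 in ERt2, with up to 6 below background. A sum follows its brightest markers. Nkg7, of the T and NK cell list, averaged 3.8 in RUNX1-ERt2, 5.37 in ERt2, 3.12 in ko and 4.5 in wt. Over the 10 markers of that list the median log2 difference was −0.95 for ERt2 minus ko and −0.05 for ko minus wt. The part of all these cell types in the results below was not tested.

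The ribosomal protein genes were among the brightest of the array. Of 82 members with signal in at least 1 group, 78 lay in the top 5% of the 17907 genes tested. The median array-averaged level was 7.38. Among the brightest members were Rpl37a, a large-subunit protein, at 8.21 and Rps27a, a ubiquitin fusion, at 8.15. The dimmest were Rpl3l, the muscle-restricted copy of Rpl3, at −5.41, Rpl7l1, a relative of Rpl7, at −0.57 and Rps21, a small-subunit protein, at 4.73. The place of Rps21 rests on the transplanted groups: it averaged 5.79 in ko and 5.87 in wt, above Rps27l at 4.53 in ko and 5.11 in wt. Rpl10l and Rpl39l, copies known for their expression in testis, did not pass the filter: Rpl10l was above background on no array, and Rpl39l on 2 of 4 ko and 3 of 4 wt arrays. No probe of the members was saturated.

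**Figure D1:**
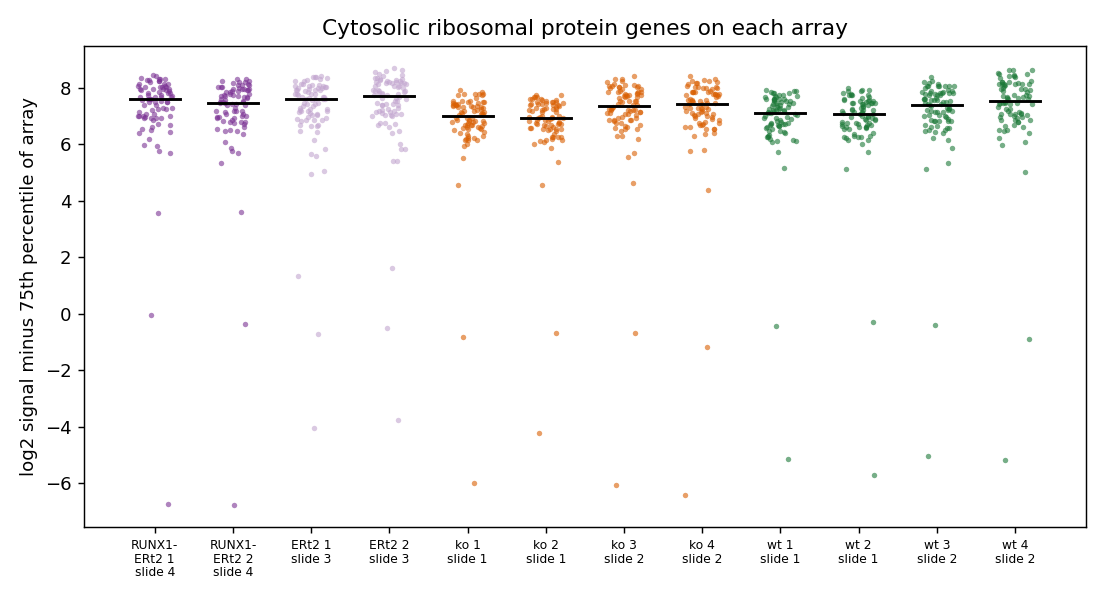
Each point is 1 of 82 ribosomal protein genes, at its log2 signal minus the 75th percentile of the array (y axis), on each of 12 arrays (x axis, with the slide), and the bar is the median. The medians lie at 7.47 to 7.59 in RUNX1-ERt2, 7.59 to 7.71 in ERt2, 6.95 to 7.43 in ko and 7.09 to 7.54 in wt, and within ko and wt those on slide 2 are above those on slide 1.

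The median member was at 7.59 and 7.47 on the RUNX1-ERt2 arrays and at 7.59 and 7.71 on the ERt2 arrays. It was at 6.99, 6.95, 7.36 and 7.43 on the ko arrays, and at 7.12, 7.09, 7.41 and 7.54 on the wt arrays. In ko and wt the higher values of each group are all those of slide 2. The brightest probes of the members held 8.40% and 8.47% of the summed signal in RUNX1-ERt2 and 8.58% and 8.65% in ERt2. They held 7.31%, 7.15%, 8.06% and 7.96% in ko and 7.29%, 7.20%, 7.63% and 8.39% in wt. The shares of ko and wt overlapped, and those of both transplanted groups lay above every array of ko and wt, the nearest at 8.40% in RUNX1-ERt2 and 8.39% in wt. Over all probes of the members, wt replicate 4, at 14.1%, lay above RUNX1-ERt2 replicate 1, at 14.02%.

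Deletion of Runx1 was followed in native GMP by comparing ko with wt on slides that held both. Of 82 members, none rose and 2 fell in ko by limma with Benjamini-Hochberg adjustment, where 11.5% of all genes tested rose and 13.8% fell. Without adjustment, 6 members (7.32%) were under 0.05 in either direction, as were 37.9% of all genes. The median difference was −0.09 for the members and −0.05 for all genes, and the 95% interval of 78 members lay within 0.5 log2 units of 0. With quantile normalization the median was 0.01, Rps27 was called higher, and Rps27l was the 1 call that was kept. Of the 240 other genes at least as bright as the lower quartile of the members (level 6.84), none rose and 14 fell (5.83%), with a median of −0.10.

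Rps27l, a copy of Rps27 known as a target of p53, was at 4.55, 4.57, 4.63 and 4.37 in ko, against 5.15, 5.13, 5.12 and 5.03 in wt. All ko arrays lay below all wt arrays, as did those of 13.2% of all genes. The gene fell by 0.58 ± 0.13 (SE) on the log2 scale, a 1.49-fold difference (limma adjusted p = 0.0115). The difference was −0.59 on slide 1. The call ended with normexp background correction (difference −0.50, adjusted p = 0.0535), with the authors' value table (−0.56, adjusted p = 0.0501) and on slide 2 alone (−0.57, adjusted p = 0.244). Of all genes, 25.3% were called, against 11.1% with normexp, 17.9% with the value table and 1.83% on slide 2 alone. In its parent Rps27 the difference was 0.07 ± 0.08 (limma adjusted p = 0.561). The Rps27 probe used is placed on chromosome 9, whereas the annotated start of Rps27 lies on chromosome 3.

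Rpl41, the shortest protein of the ribosome, was at 7.44, 7.50, 7.65 and 7.59 in ko and at 7.69, 7.74, 7.83 and 8.09 in wt. These groups did not overlap either, and the gene fell by 0.29 ± 0.09 (limma adjusted p = 0.0411). When replicate numbers were fitted as a block, the adjusted p was 0.0900, and the call ended in 18 of 27 other settings. Over the 27 settings its difference was −0.34 to −0.18.

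**Figure D2:**
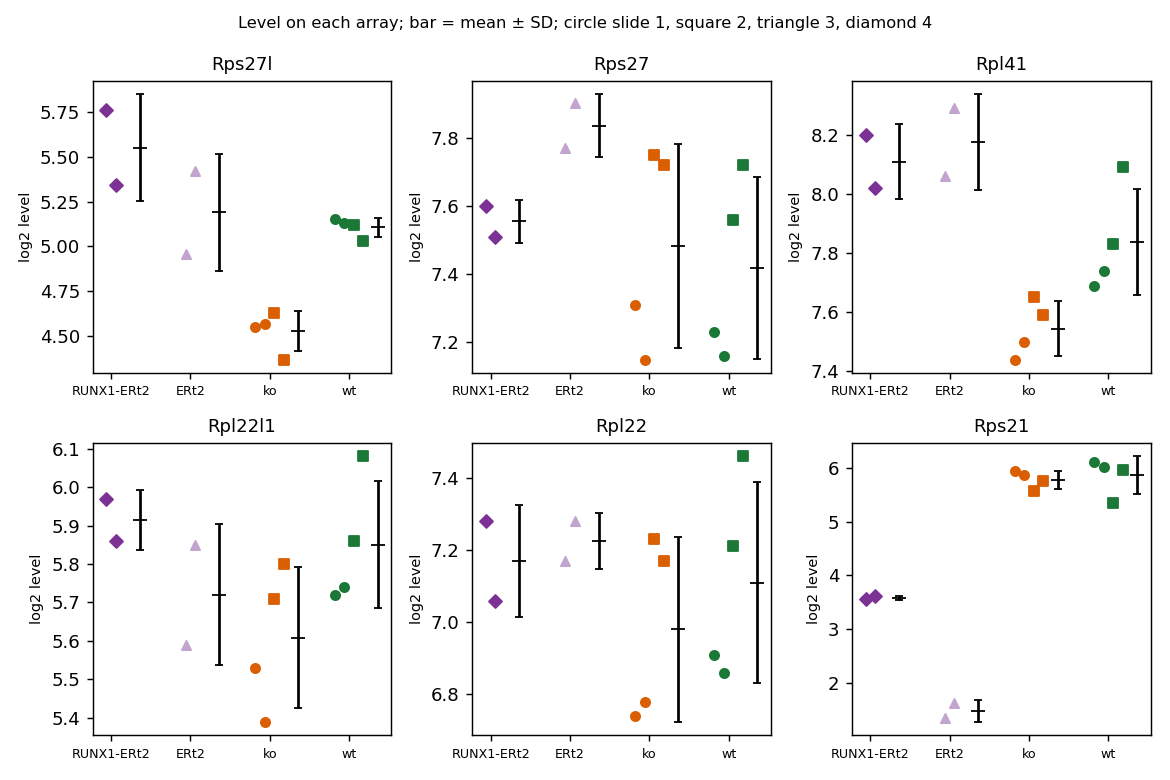
The log2 level (y axis) of 6 ribosomal protein genes on each array of the 4 groups (x axis), with the mean and SD of each group beside its points and the slide as the symbol. Rps27l and Rpl41 are lower on every ko array than on every wt array, Rps27 and Rpl22 separate by slide within ko and wt, and Rps21 is low in ERt2, at 1.33 and 1.62.

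The other copies among the 84 genes did not pass between ko and wt. Outside the 84, the copies Rpl36al and Rps4y2 fell by 0.46 ± 0.11 and 2.01 ± 0.48 (limma adjusted p = 0.0186 and 0.0158). Rpl22l1, the copy of Rpl22, was at 5.61 ± 0.18 in ko and 5.85 ± 0.16 in wt (SD, n = 4 each; difference −0.24 ± 0.09, limma adjusted p = 0.0771), and Rpl22 differed by −0.13 ± 0.08 (adjusted p = 0.31). Rpl7l1 differed by −0.33 ± 0.15 (adjusted p = 0.141) and Rpl7 by −0.09 ± 0.08 (adjusted p = 0.453). Rpl3l differed by −0.41 ± 0.40 (adjusted p = 0.492), with 2 of 4 ko and 3 of 4 wt arrays above background.

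None of the 17 members mutated in human Diamond-Blackfan anaemia passed in either direction, with differences of −0.24 to 0.10. Rps19, the gene most often mutated in that disease, differed by 0.04 ± 0.07 (limma adjusted p = 0.693). Rpl5 and Rpl11, which bind 5S ribosomal RNA and hold back Mdm2, the inhibitor of p53, differed by 0.04 ± 0.08 (adjusted p = 0.786) and −0.17 ± 0.08 (adjusted p = 0.151). The stalk proteins, which recruit translation factors, gave −0.11 ± 0.08 for Rplp0, −0.17 ± 0.11 for Rplp1 and −0.10 ± 0.10 for Rplp2 (adjusted p = 0.363, 0.294 and 0.468). Rps6, the substrate of S6 kinase, gave −0.07 ± 0.08 and Rpsa, also known as a laminin receptor, −0.11 ± 0.10 (adjusted p = 0.596 and 0.471).

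Other genes of translation and ribosome assembly were counted in the same way, against the 11.5% of all genes that rose, the 13.8% that fell and their median of −0.05. Of 76 mitochondrial ribosomal protein genes, 37 fell and none rose, with a median of −0.34. Mrpl33 fell by 0.82 ± 0.12 to a level of 4.77 in ko, against 5.6 in wt (limma adjusted p = 0.00153). Of 39 genes of ribosome biogenesis, 19 fell and none rose, with a median of −0.38, and Nop10, a component of the particles that pseudouridylate ribosomal RNA, fell by 0.71 ± 0.13 (limma adjusted p = 0.00603). Of 24 translation factors and other 5′ TOP genes, 2 fell, Nap1l1 by 0.37 ± 0.11 and Eef1g by 0.29 ± 0.09 (limma adjusted p = 0.0331 and 0.045), and the median was −0.09. Of 20 chaperones and regulators of ribosomal proteins, 6 fell and 1 rose, and Grwd1, a chaperone of Rpl3, fell by 0.52 ± 0.09 (limma adjusted p = 0.00365). The lists differ in brightness, and the difference between lists was not tested.

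**Figure D3:**
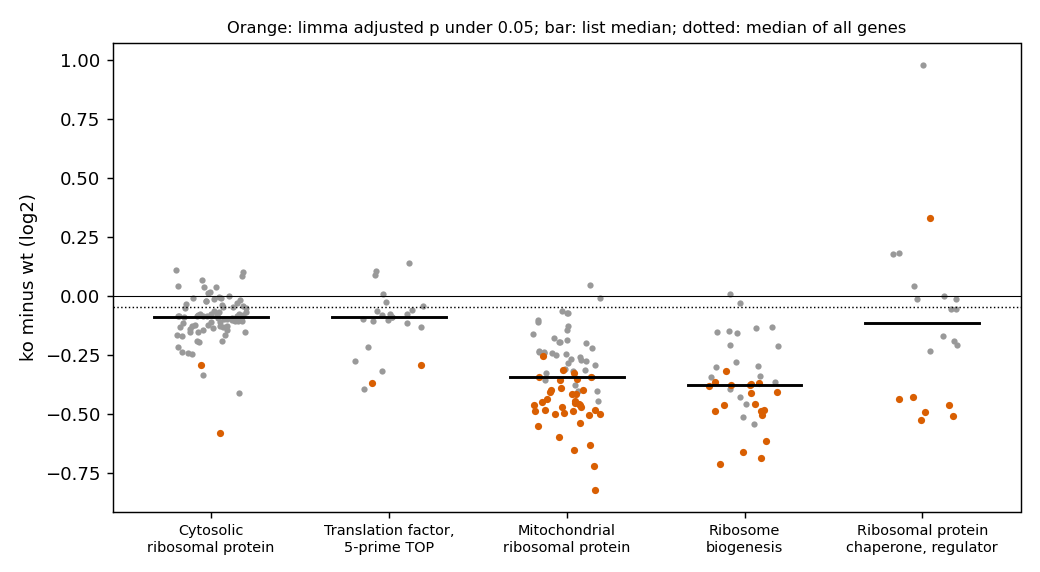
The difference of ko minus wt in log2 units (y axis) for each gene of 5 lists (x axis), with genes past a limma adjusted p of 0.05 in orange, the list median as a bar and the median of all genes as a dotted line. The cytosolic ribosomal proteins have a median of −0.09 with 2 orange points, and the mitochondrial ones a median of −0.34 with 37.

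The promoters of Rps27l and Rpl41 are shown with the letters CCGGAAG, the core bound by ETS factors, in capitals. They run from 100 bases before to 30 after an annotated start (RefSeq, GRCm38.p6). Rps27l has another annotated start, whose record lacks CCGGAAG, and the start shown was chosen because it holds these letters.
Rps27l promoter, chr9:66945986-66946115, plus strand: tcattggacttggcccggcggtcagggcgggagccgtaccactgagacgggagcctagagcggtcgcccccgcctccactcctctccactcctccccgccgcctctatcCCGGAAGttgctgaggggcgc
Rpl41 promoter, chr10:128549139-128549268, minus strand: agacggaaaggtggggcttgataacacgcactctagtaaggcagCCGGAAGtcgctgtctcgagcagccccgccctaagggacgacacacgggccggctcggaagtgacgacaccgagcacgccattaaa
Of the 84 members, 63 matched a promoter record, with 75 records in all, each of 250 bases before and 50 after the start. CCGGAAG stood on either strand in 26 of the 75 records (34.7%) and in 8.86% of all 32851. The RUNX letters TGTGGT stood in 5 records of members (6.67%) and in 16.8% of all, and TGCGGT in 4 (5.33%) and in 6.45% of all. None of these motifs overlaps another in its letters. A match is a description of the letters and not of binding.

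Restoring RUNX1 activity was followed by comparing RUNX1-ERt2 with ERt2. Of 82 members, 1 rose and 1 fell (limma), where 10.2% of all genes rose and 8.87% fell, and 11 members (13.4%) were under 0.05 without adjustment, as were 31.6% of all genes. The median difference was −0.10 for the members and −0.00 for all genes, and 0.01 for the members under quantile normalization and under correction for probe composition. Among the 240 other bright genes 6 rose and 5 fell, with a median of −0.08. With 2 arrays in each group, 10 members were higher and 34 lower without overlap, as were 29.1% and 29.8% of all genes.

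Rps21 was at 3.56 and 3.61 in RUNX1-ERt2 and at 1.33 and 1.62 in ERt2. Both RUNX1-ERt2 arrays were higher, by 2.11 ± 0.20 on the log2 scale (limma adjusted p = 0.000123). The ko arrays, at 5.96, 5.87, 5.57 and 5.76, and the wt arrays, at 6.13, 6.03, 5.35 and 5.98, were above both transplanted groups. Rps21 has a single probe, in which 30% of bases are G or C, the lowest share among the bright probes of the members together with 1 probe of Rpl11.

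Rpl3l was at −6.72 and −6.77 in RUNX1-ERt2, not well above background on either array, and at −4.05 and −3.74 in ERt2, above background on both. It was at least 2.92-fold lower in RUNX1-ERt2, a bound set by the lowest signal well above background on each array (fitted difference −2.85 ± 0.57, limma adjusted p = 0.00786). With normexp background correction the difference was −0.90 (adjusted p = 0.359). For Rps21 and Rpl3l the changes with RUNX1-ERt2 and with Runx1 deletion did not cancel: the sum of both differences was above 0 for 1 member and below 0 for 1 (limma), as for 9.4% and 8.74% of all genes.

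Neither gene that fell in ko passed here. Rps27l was at 5.76 and 5.34 in RUNX1-ERt2 and at 4.96 and 5.42 in ERt2, groups that overlap (difference 0.36 ± 0.18, 95% interval −0.05 to 0.77, limma adjusted p = 0.21). Rpl41 was at 8.20 and 8.02 in RUNX1-ERt2 and at 8.06 and 8.29 in ERt2 (−0.06 ± 0.13, 95% interval −0.35 to 0.23, adjusted p = 0.803). Of the 17 Diamond-Blackfan members none passed, with differences of −0.28 to 0.15. Rpl4, a protein that lines the exit tunnel, was at 5.68 and 5.77 in RUNX1-ERt2 and at 5.06 and 5.42 in ERt2, and its difference of 0.48 ± 0.15 did not pass (adjusted p = 0.0511).

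Transplanted and native Runx1-deleted GMP were set against each other by comparing ERt2 with ko, groups that differ in 5-fluorouracil, virus, irradiated host, tamoxifen and slide. This comparison shares the ERt2 arrays with the preceding one and the ko arrays with the first. Of 82 members, 53 rose and 6 fell (limma), where 30.2% of all genes rose and 26.7% fell. The median difference was 0.36 for the members and 0.06 for all genes. Of the 240 other bright genes, 152 rose (63.3%) and 13 fell (5.42%), with a median of 0.40, close to the 64.6% and 7.32% of the members.

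Rps18, at the head of the small subunit, was at 7.19 and 7.18 in ERt2 and at 6.16, 6.18, 6.29 and 6.38 in ko, a rise of 0.93 ± 0.08 (limma adjusted p = 2.22e-05). Rpl3, part of the peptidyl transferase region, was at 7.90 and 8.0 in ERt2 and at 6.95, 6.95, 7.20 and 7.19 in ko, a rise of 0.88 ± 0.08 (adjusted p = 2.37e-05). Both genes were higher on every ERt2 array than on every ko array, as were 46 of 82 members and 33.9% of all genes. Rpl29, Rps9, Rpl19, Rplp1 and Rps26 rose by 0.73 to 0.84, and their probes held between 51.7% and 55% G and C. Rpl3l rose by 1.77 ± 0.49 (adjusted p = 0.0129), close to background in ko, where 2 of 4 arrays were above it, and did not pass without ERt2 replicate 2 (adjusted p = 0.086). The ubiquitin fusions Rps27a and Fau rose by 0.60 ± 0.14 and 0.48 ± 0.11 (adjusted p = 0.00559 and 0.00464). Rps27l and Rpl41, which fell in ko, rose by 0.66 ± 0.16 and 0.63 ± 0.11 in ERt2 relative to ko (adjusted p = 0.00595 and 0.00118), and the call of Rps27l ended without ERt2 replicate 2 (0.0757). Of the 17 Diamond-Blackfan members 12 rose and 1 fell, with a median of 0.41.

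The 6 members that fell were Rps21, Rpl4, Rps3, Rpl7a, Rpl5 and Rpl13a. Rps21 was at 1.33 and 1.62 in ERt2, against 5.57 to 5.96 in ko, and fell by 4.32 ± 0.17 (limma adjusted p = 7.16e-08), a 20.0-fold difference that lay between −4.49 and −3.34 on the log2 scale over 27 other settings. Rpl4 fell by 0.92 ± 0.13 to 5.24 ± 0.26 in ERt2 (SD, n = 2), against 6.16 ± 0.19 in ko (SD, n = 4; limma adjusted p = 0.000314). Rps3, a protein at the mRNA entry, fell by 0.64 ± 0.11 and Rpl7a by 0.51 ± 0.11 (adjusted p = 0.00101 and 0.0047). Another Rps3 probe, with 45% G and C, rose by 0.67, and one with 35% fell by 1.52. Rpl4 has a single probe, with 35% G and C. Rpl5 fell by 0.39 ± 0.10, whereas its partner Rpl11 rose by 0.42 ± 0.10 (adjusted p = 0.00999 and 0.00493). The single probe of Rpl5 held 40% G and C, and the brightest of Rpl11 held 51.7%. Another Rpl11 probe, with 30%, fell by 1.21, so the contrast of these 2 genes depends on the probe. Rpl13a fell by 0.37 ± 0.11 (adjusted p = 0.015). The calls of Rpl5, Rpl7a and Rpl13a ended with the array median as the scale and without 1 of the ERt2 arrays, replicate 2 for Rpl5 and replicate 1 for Rpl7a and Rpl13a.

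Probes of the same gene did not agree in this comparison. The 4 Rpl7a probes in the order printed above differed by −5.00, −1.56, −0.51 and 0.49 between ERt2 and ko, and the first and second cover the same coordinates and differ at 6 of 60 bases. For ko minus wt the same probes gave −0.16, −0.07, −0.08 and −0.07. The first Rps3a probe fell by 3.16, to a level of 3.11 in ERt2, against 6.27 in ko, while the second, with the same share of G and C (36.7%), differed by 0.45, at 7.68 in ERt2 and 7.22 in ko. Both Rpl13a probes other than the brightest were higher in ERt2, by 0.47 and 0.53, and the 4 probes of Rpsa gave −0.11 on the brightest and 0.08, 0.60 and 0.79 on the others. Over the 50 members with bright probes of unequal composition, the probe with the lowest share of G and C gave a lower difference than that with the highest in 41. Where probes tied in their share, the lowest difference was taken at the low end and the highest at the high end. This choice favours the count of 41. The spread between probes of a gene had a median of 0.46 and reached 5.49, against a median of 0.08 and a maximum of 0.97 for ko minus wt.

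**Figure D4:**
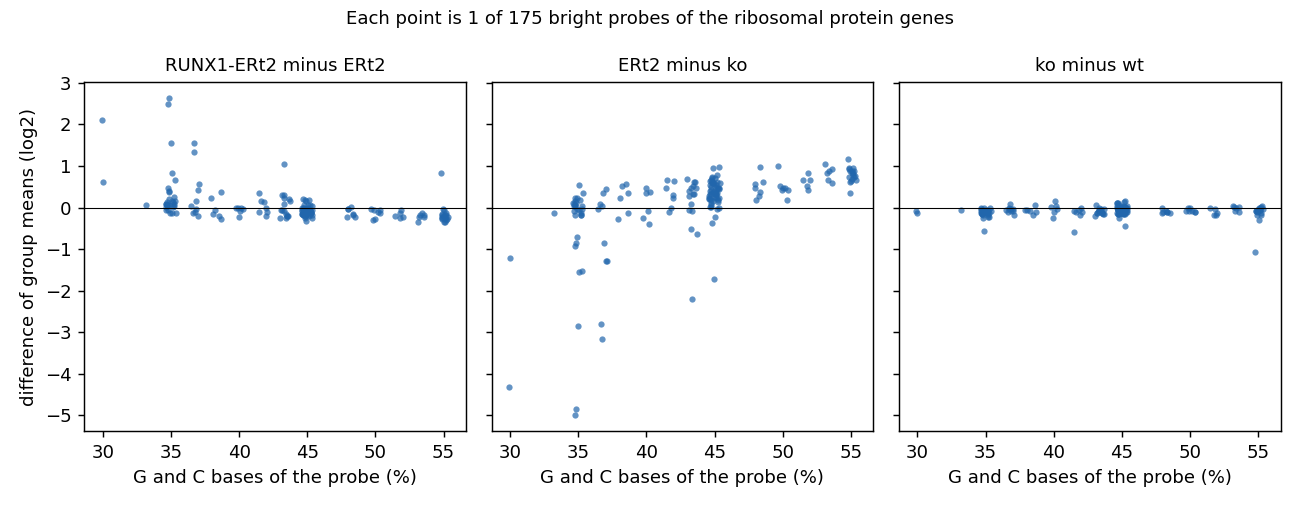
The difference of group means in log2 units (y axis) for 175 bright probes of the members against the share of G and C bases in the probe (x axis, with a small horizontal offset), in 3 comparisons. In ERt2 minus ko the points below −1 lie at 45% or less. In RUNX1-ERt2 minus ERt2 the median is 0.09 under 40%, −0.04 from 40% to under 45% and −0.09 from 45% to under 50%. In ko minus wt there is no slope of either kind.

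Across the 175 bright probes, the share of G and C and the difference of ERt2 minus ko had Spearman's rho of 0.71 (Pearson's r = 0.54), as a description of probes that share arrays and genes. The median difference was −0.05 for the 48 probes under 40% G and C and 0.81 for the 18 probes of at least 55%. For RUNX1-ERt2 minus ERt2 rho was −0.59, with medians of 0.09 and −0.21 at these ends, and for ko minus wt it was 0.13. Among 23285 other probes rho was 0.35 for ERt2 minus ko and −0.16 for RUNX1-ERt2 minus ERt2. Of the 13 bright probes of members that fell by more than 1 in ERt2, 12 held under 45% G and C. With each array corrected for the share of G and C, 23 members rose and 9 fell, with a median of 0.13, where 21.7% of all genes rose and 27.0% fell. Of the 59 calls, 24 were kept in the same direction and 35 ended, among them Rps9, Rplp1, Rps26, Rps27a, Fau, Rpl41, Rpl3l, Rpl11, Rpl10, Rpl37a, Rps19 and Rps6, and 8 were gained. The part of probe composition in the calls of single genes was not tested beyond this correction.

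The members also differed between the slides of ko and wt arrays. The file headers of slide 2 give another protocol name than those of slides 1, 3 and 4, and slide 2 holds other replicates than slide 1. Neither can be told apart from slide. Among ko and wt arrays, 63 of 82 members were higher on slide 2 than on slide 1 and none lower (limma), where 10.3% of all genes were higher and 7.06% lower. The median difference between the slides was 0.39 for the members and 0.02 for all genes. Set against ko on slide 1, ERt2 had a member median of 0.59, with 65 members higher and 5 lower, as were 28.2% and 24.3% of all genes. Against ko on slide 2 the median was 0.19, with 28 members higher and 8 lower, as were 28.9% and 27.3% of all genes. Under quantile normalization 19 members rose and 19 fell, with a median of −0.00, where 30.1% of all genes rose and 26.6% fell. Without ERt2 replicate 2, 30 members rose and 5 fell, where 21.6% and 20.6% of all genes did. Without the slide term 27 rose and 5 fell, where 25.6% and 23.3% of all genes did. With the array median as the scale, 63 members rose and 3 fell, where 37.5% of all genes rose and 20.9% fell, and calls over all genes were 64.2% higher, against 53.0% with the 75th percentile.

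**Figure D5:**
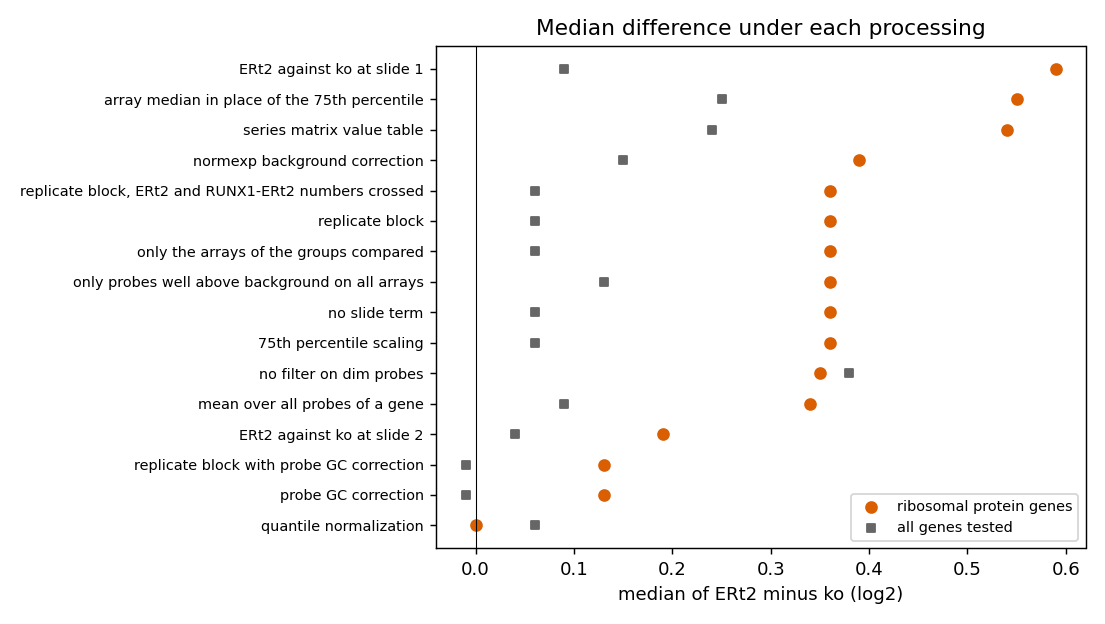
The median difference of ERt2 minus ko in log2 units (x axis) for the ribosomal protein genes (circles) and all genes tested (squares) under each processing (y axis). The members lie between −0.00 under quantile normalization and 0.59 against ko on slide 1.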

How the data were processed

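Per the file headers, the authors deposited scanner output of Agilent Feature Extraction 10.7.3.1 (version 9.1 in the submitters' processing notes), with processed intensity that was background-subtracted and not normalized between arrays. The authors' value table, also deposited, holds the same signal as a ratio to the array median, as found by setting it against the scanner values; each of its wt and ko columns fitted the scanner file of a different replicate within its group. Here control and outlier spots were left out and the array's 75th percentile was subtracted from log2 intensity. A probe had to be well above background on all arrays of at least 1 group, and the brightest probe stood for a gene. Differences came from limma 3.58.1 (R 4.3.3), with 4 group means plus a term for slide fitted to all 12 arrays (7 residual and 2.11 prior degrees of freedom), with Benjamini-Hochberg adjustment over 17907 genes and a threshold of 0.05. In a simulation of ko minus wt over 17907 genes, 17.9% of changes of 0.5, 79.1% of 1 and 92.4% of 2 log2 units were recovered. Changes were put into only 67, 67 and 66 genes, so adjustment was stricter than in the data, where 25.3% were called. The genes were drawn from all tested, with a median SE of 0.14, against 0.08 for the members. The rates thus do not describe the members. The number of arrays limits the precision.

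Same-numbered wt and ko arrays shared a slide, and their deviations from the group means correlated at 0.177 to 0.674. The numbers were taken to pair them in the replicate block. However, wt replicate 2 correlated best with ko replicate 1, and wt replicate 3 with ko replicate 4. With the slide taken out, these correlations were −0.027 for numbers 1 and 2 and 0.43 for numbers 3 and 4. Each is a single value for its slide, where the 2 arrays of a group mirror each other. The values before the slide was taken out thus include what the slide shares. The members and lists were chosen with earlier results of these data known. Genes were named by a rule: up to 8 largest rises and falls among called members in each comparison, Rplp0, Rplp1, Rplp2, Rpsa, Fau, Rps27a, Rpl5, Rpl11, Rps6, Rps19, the copies with their parents, and the 3 brightest and 3 dimmest members. A gene chosen by this rule is not reported here; counts of members include it. Other probes of Rps3a and the spread between probes were looked at after the values were seen. Alternatives were normexp (offset 50), array median, quantile normalization, the value table, 2 other filters, no slide term, the replicate block, fewer arrays, the mean over probes, and leaving out each array. A correction for probe composition and single-slide ko references were added after seeing the data. Chosen probes of 26 members share a run of at least 30 bases with a probe of another name, so their signal may include near copies. The chosen probes of Rps27 and Rps4x are placed on chromosomes 9 and 3, whereas their promoter records lie on chromosomes 3 and X.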

Additional observations from a re-analysis of the deposited data

Results flagged for a closer look

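For Rps21 and Rpl3l, the change with RUNX1-ERt2 and the change with Runx1 deletion were not equal and opposite. The sum of the difference RUNX1-ERt2 minus ERt2 and the difference ko minus wt, which is 0 where they cancel, was 2.03 for Rps21 and −3.26 for Rpl3l by the test of that sum in limma. For Rps21 the 2 differences were 2.11 and −0.08, and for Rpl3l −2.85 and −0.41. The values of Rpl3l are fitted and no bound, since it was well above background on neither RUNX1-ERt2 array. The call of its sum ended with normexp, and a filter on signal above background on all arrays left it untested. No single array of ko or wt stood apart for any of the 33 members named, in 66 groups looked at.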

How the results depend on the processing

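For ko minus wt, the 2 called members became 0 with normexp, the value table and slide 2 alone, 1 with the array median, no filter, no slide term, the replicate block, probe GC correction (with or without the block) and slide 1 alone, and 4 with the mean over probes and with the crossed block; without 1 array at a time the count was 1 to 2 and the median −0.14 to −0.05. For RUNX1-ERt2 minus ERt2, the 2 called became 1 with normexp, 4 with ERt2 and RUNX1-ERt2 numbers crossed (their same-numbered arrays correlated at −0.192) and 5 with quantile normalization and the mean over probes; without 1 array it was 2 to 4 and the median −0.17 to −0.04. For ERt2 minus ko, the 59 called became 32 with probe GC correction, 26 with that and the block, 38 with quantile normalization, 32 with no slide term and 36 against ko on slide 2, and 35 to 62 without 1 array (35 without ERt2 replicate 2). Its median became 0.13 with probe GC correction with or without the block, 0.55 with the array median and 0.54 with the value table (where that of all genes was 0.25 and 0.24, against 0.06), −0.00 with quantile normalization and 0.59 against ko on slide 1, and 0.31 to 0.45 without 1 array. For the sum of both differences, the 2 called became 1 with normexp, the filter on all arrays and the block with GC correction, 4 with the mean over probes, and 1 to 4 without 1 array. Of all genes, 25.3% were called in ko minus wt, against 11.1% with normexp, 17.9% with the value table and 1.83% on slide 2 alone. In RUNX1-ERt2 minus ERt2 19.1% were called, against 7.76% with normexp, 22.8% with the crossed block and 19.4% with quantile normalization. In ERt2 minus ko 56.9% were called, against 48.7% with probe GC correction, 47.7% with that and the block and 56.8% with quantile normalization. It was 49.0% with no slide term and 56.2% against ko on slide 2. The share of signal became 14.07% in RUNX1-ERt2, 14.25% in ERt2, 13.04% in ko and 12.95% in wt over all probes of the members, and 8.31% in RUNX1-ERt2 and 8.47% in ERt2 with normexp.

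Directions of members named here turned in ERt2 minus ko. With quantile normalization these were Fau (−0.01), Rpl10 (−0.02), Rpl11 (−0.05), Rpl37a (−0.07), Rplp0 (−0.30), Rplp2 (−0.41), Rps27 (−0.11) and Rps6 (−0.14); with GC correction, with or without the block, Rpl11 (−0.07); with the mean over probes Rpl11 (−0.25), Rpl13a (0.21) and Rpsa (0.34); and with normexp Rpsa (0.74). The cause was not tested. Of all calls in ko minus wt, 45.5% were higher, against 57.4% with the array median and 58.7% with the value table, and in ERt2 minus ko 53.0%, against 64.2%, 63.3% and, with no filter, 68.3%. The replicate block kept 57 of 59 calls in ERt2 minus ko, losing Rpl24 and Rpl31, added Rpl4 in RUNX1-ERt2 minus ERt2 and changed no other call of a member than that of Rpl41 in ko minus wt. Rps21, Rpl4, Rps3, Rpl3, Rpl19 and Rps18 kept their calls in ERt2 minus ko under all 27 settings. Of these, Rps21, Rpl4 and Rpl19 have a single probe each, and the probes of Rps3 gave opposite changes. Signal near background limits Rpl3l, Rpl10l and Rpl39l.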
